A study of Mus musculus with 16 samples.

Results

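The D-type cyclins (Ccnd1, Ccnd2, Ccnd3), cyclin F (Ccnf) and the cyclin-dependent kinase (CDK) inhibitors Cdkn1a, Cdkn1b, Cdkn2c and Cdkn2d were followed in mouse outflow valves by RNA sequencing. They were taken by name from the deposited table of normalised counts, where all 8 were present among 13964 genes, and all 8 passed the filter on low values that kept 13963. Valve tissue was cut by laser from C57BL/6 embryos at stage E14.5, with 4 libraries in each of 4 groups: pulmonary valve of Jag1flox;Nkx2.5-Cre mutants, pulmonary valve of wild-type embryos, aortic valve of the same mutant genotype, and aortic valve of wild-type embryos. The mutants carry a floxed allele of Jag1, which encodes a Notch ligand, and a Cre recombinase driven by the cardiac gene Nkx2-5. Nkx2-5 is active in heart muscle and in part of the other cells of the embryonic heart, so deletion is limited to those lineages. The labels name no group with Cre alone, and no source used here says how the cut regions were picked. Aortic and pulmonary libraries were prepared as separate batches, which means that a valve cannot be told apart from its batch; the genotypes were compared inside a batch. The libraries came from 5 litters, of which 3 gave both valves, and the labels do not tie a valve to an embryo.

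D-type cyclins bind the kinases Cdk4 and Cdk6 and start the phosphorylation of the retinoblastoma protein, which releases E2F transcription factors and lets a cell leave G1. The inhibitors of the Cdkn2 family, here p18-INK4c (Cdkn2c) and p19-INK4d (Cdkn2d), bind Cdk4 and Cdk6 directly, whereas p21 (Cdkn1a) and p27 (Cdkn1b) bind complexes of cyclin and kinase, and p21 is a classical target of p53. Cyclin F activates no known CDK. It is the substrate-binding subunit of an SCF ubiquitin ligase, and its own transcript peaks late in the cell cycle. In embryonic outflow valves the cushion mesenchyme divides as the leaflets lengthen and slows as they thin, and Notch signalling from the endocardium takes part in that remodelling.

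Promoter sequences are shown for cyclin F, which had the largest genotype difference among the 8 genes, for p27, which had the narrowest range over the libraries, and for p21, because it is the textbook p53 target. RefSeq windows (build GRCm38), running from 250 bases before to 50 bases after an annotated start, were found for 6 of the 8 genes. The part before the first annotated exon base is printed here, 5′ to 3′ on the strand of the gene, with matches in capitals to the E2F letters TTTNGCGC, the cell cycle homology region (CHR) letters TTTGAA, the letters CCAAT and the p53 half-site, on either strand.
Ccnf, chr17:24251485-24251659, minus strand: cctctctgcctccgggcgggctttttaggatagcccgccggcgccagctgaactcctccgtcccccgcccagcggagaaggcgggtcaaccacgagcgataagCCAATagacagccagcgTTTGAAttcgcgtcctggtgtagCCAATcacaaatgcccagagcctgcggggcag
Cdkn1b, chr6:134920151-134920400, plus strand: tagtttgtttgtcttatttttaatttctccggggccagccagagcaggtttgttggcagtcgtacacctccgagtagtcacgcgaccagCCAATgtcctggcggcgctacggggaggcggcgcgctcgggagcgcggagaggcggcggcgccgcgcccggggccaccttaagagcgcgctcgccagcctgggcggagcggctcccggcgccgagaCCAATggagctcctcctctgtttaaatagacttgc
Cdkn1a, chr17:29090729-29090975, plus strand: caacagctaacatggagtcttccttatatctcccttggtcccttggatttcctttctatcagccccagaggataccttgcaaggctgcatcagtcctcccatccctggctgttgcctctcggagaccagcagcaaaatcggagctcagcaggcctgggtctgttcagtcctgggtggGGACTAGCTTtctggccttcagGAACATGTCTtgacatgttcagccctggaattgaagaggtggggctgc

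The Ccnf stretch held 1 CHR match lying between 2 CCAAT matches, with no overlap among them. The whole 300-base Ccnf window held 2 CHR and 2 CCAAT matches. Among 32544 windows of this length, 17.8% held CHR letters and 37.4% held CCAAT. The Cdkn1b stretch held 2 CCAAT matches and no CHR match. The capitals in the Cdkn1a stretch are 2 matches to the p53 half-site, which 8.36% of windows held. A further Cdkn1a window, chr17:29093519-29093818, held 0 such matches, and the Cdkn2d window held 1. That motif was added to the search after the Cdkn1a sequence had been read, so finding it there is a description of a sequence already seen. A stricter form, of 2 half-sites side by side, was searched at the same time and was in 0 of the 9 windows of these genes and in 0.00922% of all windows. Only exact matches to the half-site letters RRRCWWGYYY were taken (R, A or G; W, A or T; Y, C or T). In the Cdkn1a stretch the bases tgacatgttc directly follow the match GAACATGTCT. They miss the half-site letters at the first base only, so they stay in lower case and the pair was not counted. Letters of the E2F site (1.39% of windows) and of the Notch effector site GTGGGAA (6.39% of windows) were in none of the 9 windows, and GC-box letters GGGCGG (35.9% of windows) were in most of them. In all, 7 motifs were searched, and a match is a run of letters, not a shown binding site.

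The deposited values are read counts scaled by library depth and between libraries, and 1 read was worth the same for every gene of a library, which let whole reads be recovered. Libraries held 4.56 to 8.68 M recovered reads (M, megareads). Jag1, the deleted gene, had 12.4, 4.70, 3.78 and 1.85 normalised counts in mutant pulmonary libraries, against 13.6, 19.2, 25.7 and 15.4 in wild-type pulmonary libraries. It had 9.90, 11.4, 5.93 and 10.2 in mutant aortic libraries, against 20.2, 54.7, 39.7 and 18.8 in wild-type aortic libraries. Every mutant library was below every wild-type library of its valve, with a mean log2 difference of -1.68 (adjusted p = 0.218, limma with Benjamini-Hochberg adjustment), so Jag1 itself missed the threshold over all genes. Libraries also differed in transcripts that mark other tissue. A list of 12 skeletal muscle markers averaged 0.64 to 2.33 on the log2 scale in 6 libraries and 5.35 to 7.04 in the other 10; these sets were defined from the data, after the values were seen. The 6 libraries low in muscle markers were mutant pulmonary 4, wild-type pulmonary 2 and 4, mutant aortic 4, and wild-type aortic 2 and 4. Valve mesenchyme markers were present in every library, with a list mean of 6.90 to 8.97, but at unequal levels. Their summed level was 9633 to 13681 normalised counts in the 6 low libraries and 2376 to 9864 in the other 10. Tbx20, a gene of that list, ran from 1032 to 1744 in the 6 libraries and from 98.0 to 976 in the 10.

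Levels between genes were compared per kilobase of exon. By all annotated exons the mean normalised count per kilobase over the 16 libraries was 29.5 for Ccnd1, 27.5 for Ccnd2, 16.8 for Cdkn1a, 14.8 for Ccnd3, 12.8 for Cdkn2d, 7.73 for Cdkn1b, 4.26 for Cdkn2c and 3.77 for Ccnf. Neighbours in that order changed places between libraries. Ccnd1 was above Ccnd2 in 12 of 16 libraries, and Ccnd3 was above Cdkn2d in 9 of 16. With the longest annotated transcript in place of all exons the order changed, to 40.9 for Ccnd2, 37.2 for Ccnd1, 33.7 for Ccnd3, 28.7 for Cdkn1a, 14.1 for Cdkn2d, 7.73 for Cdkn1b, 7.11 for Ccnf and 4.63 for Cdkn2c. Under both lengths Ccnd1 and Ccnd2 were the top pair, and Cdkn1b, Cdkn2c and Ccnf were the lowest 3. Reads behind single values ran from 23 for Cdkn2d in wild-type pulmonary library 3 to 4391 for Ccnd2 in mutant aortic library 1. Reads carry no molecular identifiers, so such counts speak to counting error only.

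**Figure D1:**
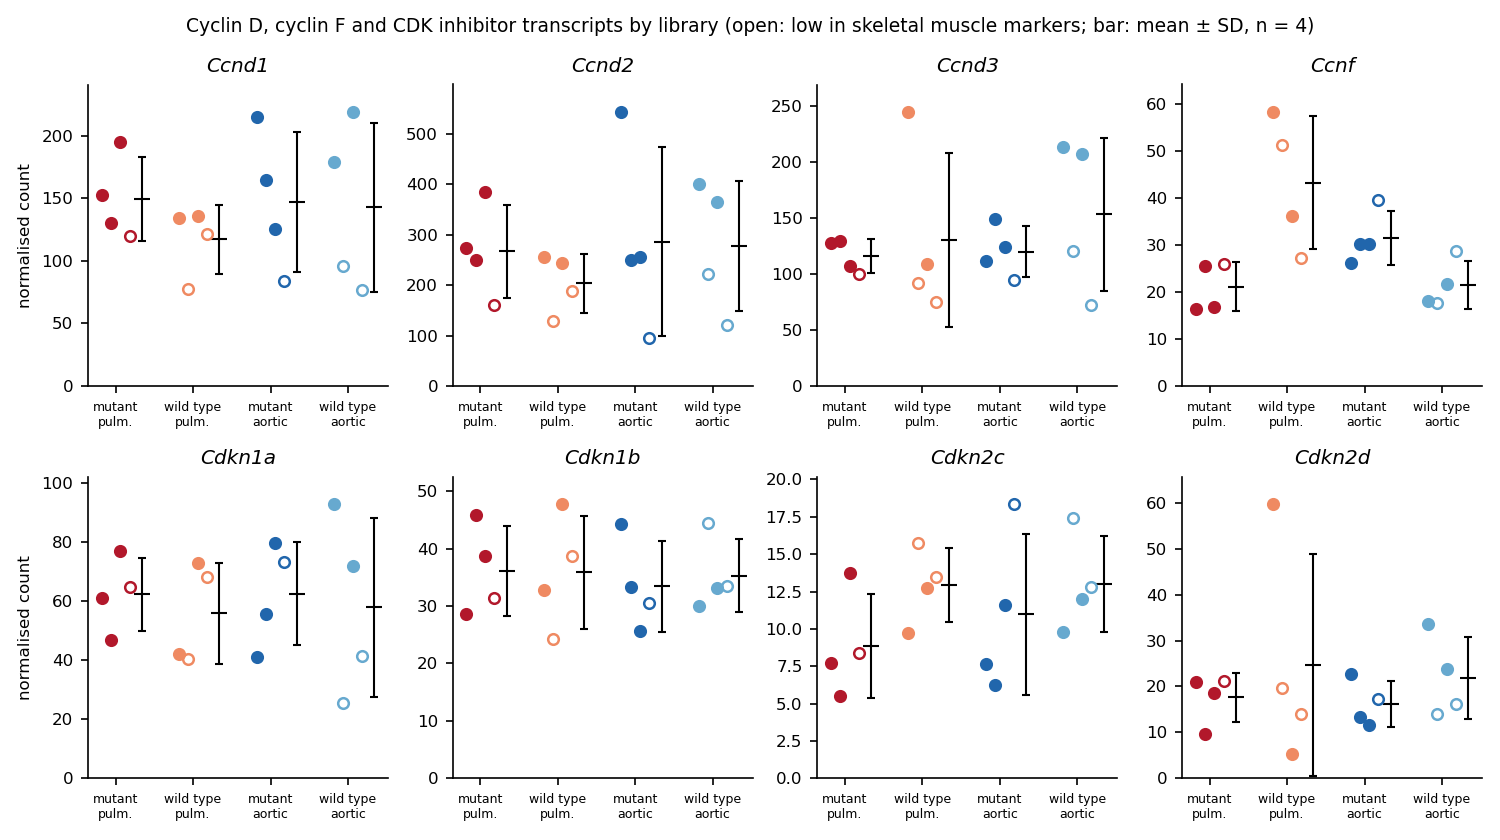
Normalised counts (y axis, from 0) of the 8 genes in each library, by group along the x axis, with replicates 1 to 4 side by side; open circles mark the 6 libraries with few skeletal muscle transcripts, and bars are mean ± SD (n = 4). Ccnf is the gene whose mutant pulmonary libraries (16.5 to 25.9) all lie below the wild-type pulmonary ones (27.2 to 58.3), and open circles lie lowest for Ccnd1 and Ccnd2.

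No gene of this set passed the adjusted threshold of 0.05 between genotypes, in either valve or on average, and neither did any other gene. The model was limma on log2(normalised count + 1) in all 16 libraries, and 0 of 13963 genes (0%) passed for the pulmonary valve, for the aortic valve, for their mean, or for the difference between the valves. At an unadjusted p below 0.05 there were 437 genes (3.13%) in the pulmonary valve, 196 (1.40%) in the aortic valve, 389 (2.79%) for the mean and 264 (1.89%) for the difference between valves. Of the 8 genes, Ccnf was the 1 with an unadjusted p below 0.05 in the pulmonary valve, and none had one in the aortic valve or for the mean. A count model (edgeR's quasi-likelihood test on the recovered reads) also called 0 genes in each comparison, with 442, 184, 404 and 232 at an unadjusted p below 0.05. These p-values set a group difference against the spread between the sampled libraries, without the litter pairing. A p above the threshold does not show equal levels. In bulk tissue, fewer cells of a type and less RNA per cell cannot be told apart.

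Cyclin F had a lower mean in mutant than in wild-type pulmonary valves and a higher mean in mutant than in wild-type aortic valves. Ccnf had 16.5, 25.5, 16.8 and 25.9 normalised counts in mutant pulmonary libraries 1 to 4, against 58.3, 51.3, 36.1 and 27.2 in wild-type pulmonary libraries 1 to 4. The pulmonary groups did not overlap, although the highest mutant value (25.9) and the lowest wild-type value (27.2) were close. Every mutant library was below every wild-type library for 1.05% of all genes and above for 0.938%, 1.98% together, and Ccnf was the 1 of the 8 genes without overlap. In the aortic valve Ccnf had 26.1, 30.2, 30.3 and 39.5 normalised counts in mutant libraries, against 18.2, 17.7, 21.6 and 28.8 in wild-type libraries. The aortic groups overlapped, because wild-type library 4 (28.8) lay above mutant library 1 (26.1). None of the 8 genes was free of overlap in the aortic valve, where every mutant library was above for 0.759% of all genes and below for 0.824%, 1.58% together.

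The mutant mean of Ccnf in the pulmonary valve was 21.2 ± 5.25 and the wild-type mean 43.2 ± 14.2 (SD, n = 4 each). The log2 difference was -0.97 (SE 0.28, 95% interval -1.55 to -0.38, limma unadjusted p = 0.00291, adjusted p = 1.00). In the aortic valve the means were 31.5 ± 5.68 in mutants and 21.6 ± 5.11 in wild type (SD, n = 4 each), a log2 difference of 0.54 (SE 0.28, interval -0.05 to 1.124, limma adjusted p = 1.00). The pulmonary difference minus the aortic difference was -1.50 (SE 0.39, interval -2.33 to -0.67, limma unadjusted p = 0.00137, adjusted p = 1.00), so the contrast between valves also missed the threshold over all genes. Mutant and wild-type libraries with the same number share a litter, and Ccnf was lower in the mutant in 4 of 4 pulmonary pairs and higher in 4 of 4 aortic pairs. All 4 pairs pointed one way in one valve and the other way in the other for 77 genes, 0.551% of those tested. The valves were separate library batches, so a contrast between valves cannot be told apart from a contrast between batches. Within 1 valve, all 4 pairs pointed the same way for 13.6% of genes in the pulmonary and 11.0% in the aortic valve, and of the 8 genes Ccnf alone did so in either.

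**Figure D2:**
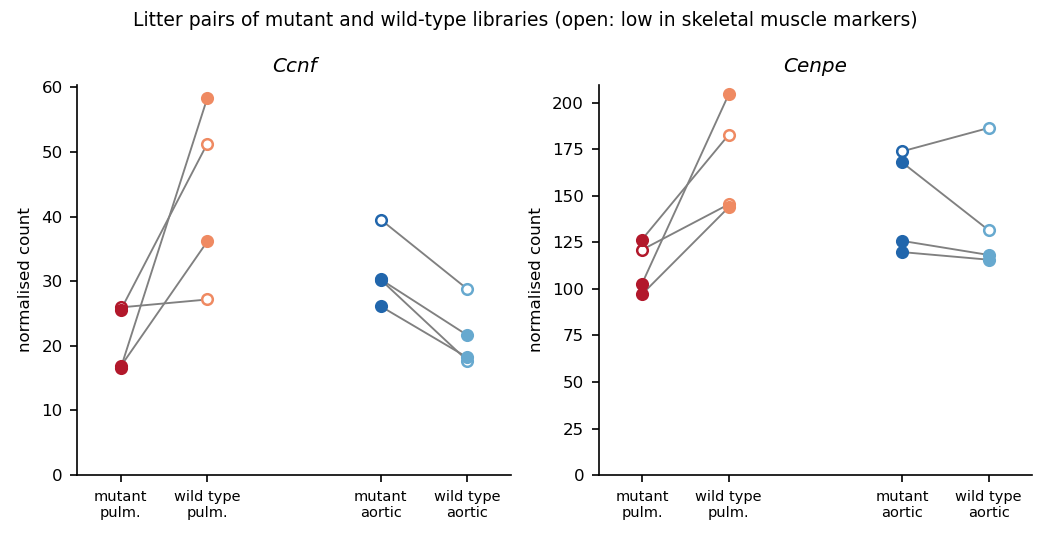
Normalised counts (y axis) of Ccnf and of Cenpe, the gene most like it over the 16 libraries, in mutant and wild-type libraries of each valve; grey lines join libraries of the same litter and open circles are libraries low in skeletal muscle markers. Every pulmonary line climbs toward the wild type for Ccnf and every aortic line descends, while the aortic lines of Cenpe are mixed.

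Proliferation and cell type marker lists stood as follows beside the Ccnf values. Mitosis markers (16 genes) averaged 6.12 to 6.35 on the log2 scale in mutant pulmonary libraries and 6.19 to 7.19 in wild-type pulmonary libraries, and 15 of the 16 had a lower fitted mean in mutants. S phase markers (15 genes) averaged 5.77 to 6.04 in mutant and 5.73 to 7.07 in wild-type pulmonary libraries. In the aortic valve, where the Ccnf mean was higher in mutants, mitosis markers averaged 6.21 to 6.55 in mutant and 6.13 to 6.58 in wild-type libraries, with 9 of 16 genes lower in mutants, and S phase markers 5.78 to 6.17 and 5.87 to 6.56, with 11 of 15 lower. Erythroid markers were lower in mutants for 9 of 9 genes in the pulmonary valve (list median -1.29 on the log2 scale) and 8 of 9 in the aortic valve (-0.26). The erythroid mean was 10.04 in wild-type pulmonary library 1 and 5.69 to 6.61 in the other wild-type pulmonary libraries. It was 5.40 to 6.61 in mutant pulmonary libraries. Skeletal muscle markers were higher in mutants for 12 of 12 genes in the pulmonary valve (0.95) and 10 of 12 in the aortic valve (0.46). Wild-type groups held more of the libraries low in these markers. In libraries with these markers the list mean was 5.36 to 6.05 in mutant and 5.99 to 6.20 in wild-type pulmonary libraries. In aortic libraries with them it was 5.35 to 6.39 in mutants and 6.21 to 7.04 in wild type. Cardiomyocyte markers were higher in mutants for 8 of 11 genes in the pulmonary valve (0.43) and lower for 10 of 11 in the aortic valve (-0.35). None of these marker genes passed the adjusted threshold, and the part of blood and heart muscle cells in the Ccnf values was not tested. With the mean of the S phase and mitosis lists as a covariate the pulmonary difference of Ccnf was -0.90 on the log2 scale and the contrast between valves -1.46. The pulmonary difference was -1.22 in the 10 libraries with muscle markers and -0.51 in the 6 libraries low in them, where a single mutant library stands in each valve. Wild-type pulmonary library 1 held the highest Ccnf value and the highest mitosis mean, and without it the pulmonary difference was -0.81.

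The genes most like Ccnf over the 16 libraries were Cenpe, a kinesin motor of mitotic kinetochores, Tut7, a terminal uridylyltransferase, and Pigq, an enzyme of glycolipid anchor synthesis. Their Pearson r with Ccnf on the log2 scale was 0.841, 0.788 and 0.748 over 16 libraries, and 0.911, 0.797 and 0.917 within the 10 libraries with muscle markers. Cenpe had 103, 127, 97.1 and 121 normalised counts in mutant pulmonary libraries, against 205, 183, 144 and 145 in wild-type pulmonary libraries. Cenpe was thus lower in every mutant than in every wild-type pulmonary library, as Ccnf was and as 1.05% of all genes were. It was picked for its likeness to Ccnf over these same libraries, so the shared order is not separate evidence. These correlations share library, depth and group structure, and are given as a description. Of 11 genes listed as encoding substrates of the cyclin F ligase, 9 had a lower fitted mean in mutants in the pulmonary valve and 9 in the aortic valve, and 0 passed the adjusted threshold in either. The list median was -0.16 on the log2 scale in both valves, against 0.01 in the pulmonary and 0.02 in the aortic valve over all genes tested. Slbp, the histone stem-loop binding protein, had the smallest p of this list for the mean genotype effect, with a log2 difference of -0.33 (limma adjusted p = 1.00). Slbp and Rrm2 are also in the S phase list and Nusap1 in the mitosis list, so the lists are not separate. These are transcript levels, and the activity of the ligase on substrate proteins was not measured.

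Cyclins D1 and D2 had overlapping values in mutant and wild-type libraries, and the lowest values fell in the same 6 libraries for both. Ccnd1 had 152, 130.0, 195 and 119.8 normalised counts in mutant pulmonary libraries, against 134, 77.3, 136 and 121 in wild-type pulmonary libraries. It had 215, 164, 126 and 83.9 in mutant aortic libraries, against 179, 96.2, 219 and 76.5 in wild-type aortic libraries. The genotypes overlapped in both valves, and the lowest value of 3 of the 4 groups belonged to replicate 4. The log2 difference of Ccnd1 was 0.36 in the pulmonary valve (SE 0.34, interval -0.35 to 1.07) and 0.09 in the aortic valve (SE 0.34, interval -0.62 to 0.80).

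Ccnd2 had 275, 249, 385 and 162 normalised counts in mutant pulmonary libraries, against 256, 128, 244 and 188 in wild-type pulmonary libraries. It had 543, 249.7, 256 and 94.3 in mutant aortic libraries, against 399.8, 223, 366 and 121 in wild-type aortic libraries. Mutant aortic libraries held both the highest and the lowest Ccnd2 value of the series. The log2 difference was 0.37 in the pulmonary valve (SE 0.46, interval -0.59 to 1.34) and -0.07 in the aortic valve (SE 0.46, interval -1.03 to 0.90), and both intervals include 0. The pulmonary difference of Ccnd2 was 0.15 with the muscle marker mean as a covariate, 0.25 in the 10 libraries with muscle markers and 0.0545 in the 6 low ones, and 0.17 to 0.59 without single libraries. The aortic difference was -0.23 in the 10 libraries and -0.80 in the 6.

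The 6 libraries low in skeletal muscle markers held the 6 lowest values of both genes. Ccnd1 ran from 76.5 to 121 normalised counts in those 6 libraries, with a median of 90.05, and from 126 to 219 in the other 10, with a median of 158. Ccnd2 ran from 94.3 to 223 in the 6 libraries, with a median of 145, and from 244 to 543 in the other 10, with a median of 266. All 6 libraries were below all 10 others for 514 genes, 3.68% of those tested, and above them for 2.60%, where none of the 8 genes fell. Ccnd3 lay below the lowest of the 10 in 5 of the 6, and Cdkn1a, Cdkn1b, Ccnf, Cdkn2c and Cdkn2d overlapped between the sets. Cdkn1c, which encodes the third member of the p21 and p27 family (p57), ran from 16.5 to 97.4 in the 6 libraries and from 530.1 to 1530.3 in the other 10. Endothelial markers averaged 6.39 to 7.52 in the 6 libraries and 4.40 to 6.79 in the others, and valve mesenchyme markers 8.19 to 8.97 and 6.90 to 8.59. The summed level of 11 cardiomyocyte markers was 156 to 560.5 normalised counts in the 6 libraries and 929 to 3631 in the others. Neuronal and Schwann cell markers averaged 1.77 to 2.39 in the 6 libraries and 2.17 to 4.07 in the others. S phase markers averaged 5.73 to 5.92 in the 6 libraries and 5.81 to 7.07 in the others. The part of these tissues in the cyclin D levels was not tested. Both genotypes and both valves were in both sets, with 1 low library in each mutant group and 2 in each wild-type group.

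**Figure D3:**
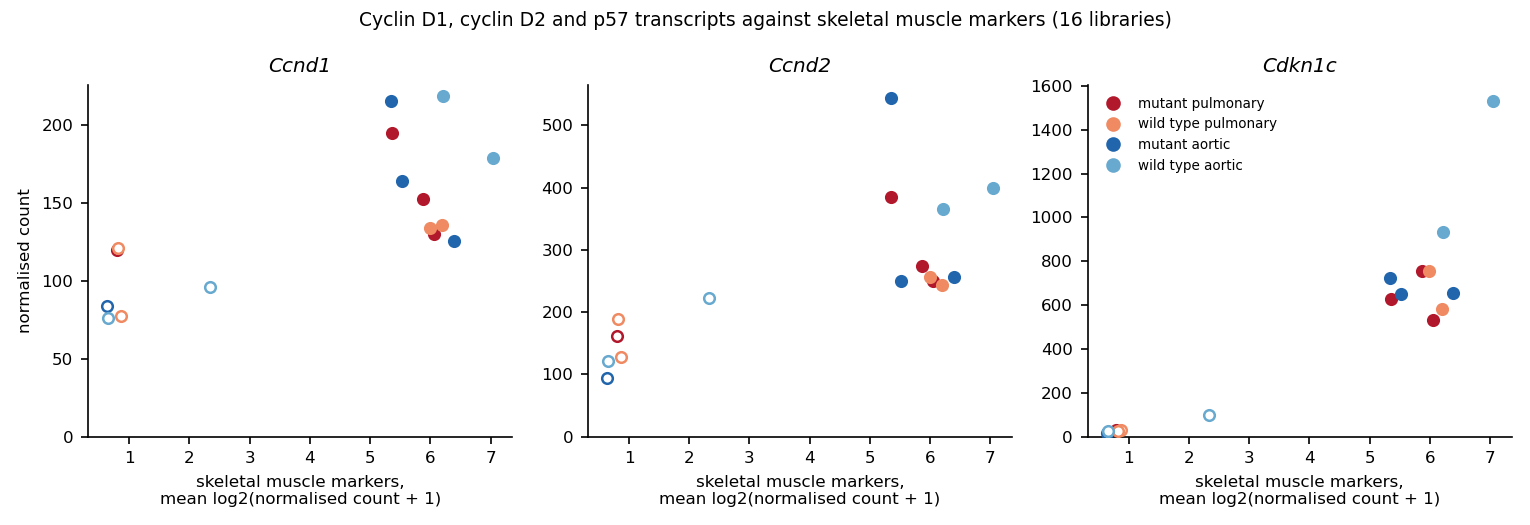
Normalised counts (y axis) of Ccnd1, Ccnd2 and Cdkn1c against the average of 12 skeletal muscle markers on the log2 scale (x axis) in 16 libraries coloured by group; open circles are the 6 low libraries. The 6 open circles lie below all 10 filled ones in each panel, and colours mix within both sets.

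Within the 10 libraries with muscle markers, the mutant and wild-type means of Ccnd1 were 159 and 135 in the pulmonary valve and 168 and 199 in the aortic valve. The aortic log2 difference of Ccnd1 in those libraries was -0.27, opposite in sign to the value over all libraries. Over the 16 libraries Ccnd1 and Ccnd2 correlated at r = 0.92 on the log2 scale, a value that includes the step between the 2 sets. The genes most like Ccnd1 were Runx2, a transcription factor of skeletal development (r = 0.940), Tma7 (r = 0.940) and Cdo1, a cysteine dioxygenase (r = 0.928). Those most like Ccnd2 were Ldlrad3 (r = 0.959), the cytokine gene Mif (r = 0.936) and the ubiquitin-conjugating enzyme gene Ube2r2 (r = 0.929). Within the 10 libraries with muscle markers these r values were 0.799 to 0.880.

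Cyclin D3 is known for its role in lymphoid and erythroid precursors. Ccnd3 had 128, 129.6, 107 and 100.04 normalised counts in mutant pulmonary libraries, against 245, 91.6, 109 and 75.2 in wild-type pulmonary libraries. It had 112, 149, 124 and 95.01 in mutant aortic libraries, against 213, 121, 207 and 72.5 in wild-type aortic libraries. Wild-type values spread more widely than mutant values in both valves, on both sides of them. The log2 difference was -0.01 in the pulmonary valve (SE 0.35, interval -0.76 to 0.73) and -0.24 in the aortic valve (SE 0.35, interval -0.98 to 0.50).

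Each D cyclin's share of the length-scaled sum of the 3 showed no genotype difference past the threshold. Ccnd1 took 43.4% ± 2.92 in mutant and 41.2% ± 5.56 in wild-type pulmonary libraries, and 42.3% ± 3.53 in mutant and 39.4% ± 4.24 in wild-type aortic libraries (SD, n = 4 each). Ccnd3 took 18.7% ± 3.96 in mutant and 23.4% ± 7.90 in wild-type pulmonary libraries, and 20.4% ± 7.03 in mutant and 22.7% ± 0.998 in wild-type aortic libraries (SD, n = 4 each). Over the 6 comparisons (3 genes in 2 valves) the exact two-sided permutation p over 70 assignments was 0.371 to 0.829 and the adjusted p 0.754 to 0.829, where the smallest p the design allows is 0.0286. Over single libraries the Ccnd1 share ran from 34.04% to 47.4%, the Ccnd2 share from 25.9% to 49.7% and the Ccnd3 share from 11.0% to 33.4%. With longest transcript lengths the median Ccnd3 share was 31.4% in place of 21.5%. Cdk4, the main partner kinase, varied little, from 238 to 329 normalised counts over the 16 libraries, and Cdk6 ran from 22.1 to 56.8.

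**Figure D4:**
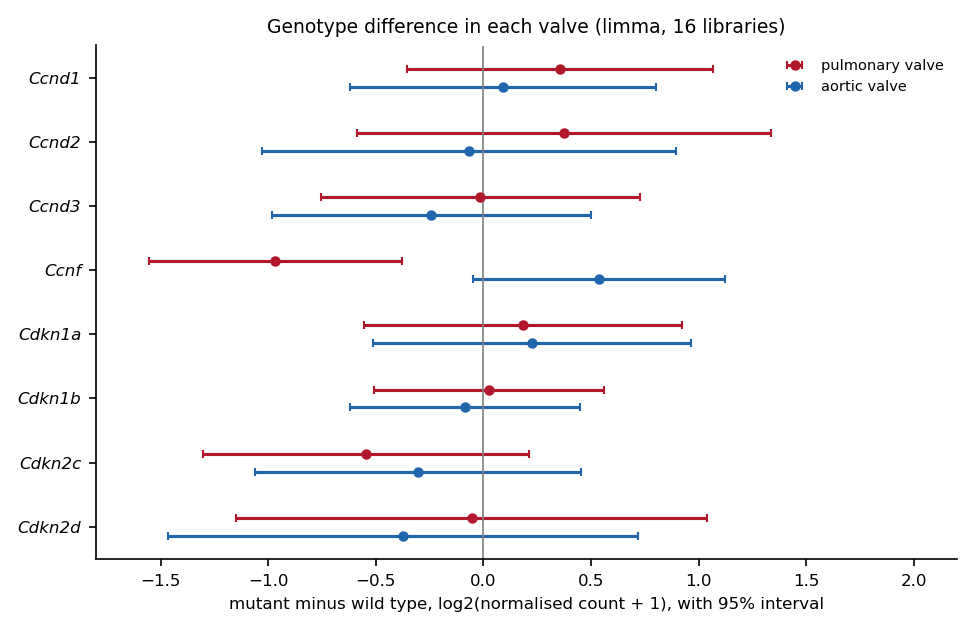
Mutant minus wild-type difference on the log2(normalised count + 1) scale (x axis) with its 95% interval for each of the 8 genes (y axis), in the pulmonary valve and the aortic valve, from 1 limma model over 16 libraries. The pulmonary interval of Ccnf (-1.55 to -0.38) is the only one that leaves out 0, before adjustment over all genes.

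The inhibitors p21 and p27 had overlapping values in mutant and wild-type libraries of both valves, and every interval included 0. Cdkn1a had 60.9, 46.8, 76.8 and 64.6 normalised counts in mutant pulmonary libraries, against 42.0, 40.5, 72.7 and 68.0 in wild-type pulmonary libraries. It had 41.2, 55.6, 79.7 and 73.2 in mutant aortic libraries, against 92.7, 25.4, 71.9 and 41.4 in wild-type aortic libraries. Wild-type aortic libraries held both the highest and the lowest Cdkn1a value. The log2 difference of Cdkn1a was 0.18 in the pulmonary valve (SE 0.35, interval -0.55 to 0.92) and 0.23 in the aortic valve (SE 0.35, interval -0.51 to 0.96). The aortic difference was -0.52 in the 10 libraries with muscle markers and 1.15 in the 6 low ones. Of 18 genes of the p53 axis, 8 had a higher and 10 a lower fitted mean in mutants averaged over valves, and 0 passed the adjusted threshold. Those with the smallest p for the mean genotype effect were Btg2, an antiproliferative gene (log2 difference -0.71), Sesn2, a stress-response gene (-0.84), and Plk2, a polo-like kinase (0.52), with limma adjusted p = 1.00 for each.

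Cdkn1b had 28.5, 45.9, 38.6 and 31.4 normalised counts in mutant pulmonary libraries, against 32.8, 24.3, 47.7 and 38.7 in wild-type pulmonary libraries. It had 44.3, 33.4, 25.6 and 30.6 in mutant aortic libraries, against 30.0, 44.5, 33.0 and 33.5 in wild-type aortic libraries. Its highest value was 1.96 times its lowest over all 16 libraries, the narrowest range of the 8 genes. The log2 difference was 0.03 in the pulmonary valve (SE 0.25, interval -0.51 to 0.56) and -0.09 in the aortic valve (SE 0.25, interval -0.62 to 0.45). Of 14 genes for the turnover of these inhibitors and cyclins, 0 passed the threshold in either valve. Cul4a, a ubiquitin ligase scaffold, had the smallest p for the mean genotype effect, at -0.24 (limma adjusted p = 1.00).

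The inhibitors specific to Cdk4 and Cdk6 that were followed, p18-INK4c and p19-INK4d, both had a lower mutant mean in each valve, with overlapping groups. For Cdkn2d the lower pulmonary mean rested on wild-type library 1 (59.7), without which the log2 difference was 0.52. Cdkn2c had 7.72, 5.50, 13.7 and 8.40 normalised counts in mutant pulmonary libraries, against 9.72, 15.8, 12.7 and 13.5 in wild-type pulmonary libraries. It had 7.67, 6.27, 11.6 and 18.3 in mutant aortic libraries, against 9.78, 17.4, 12.002 and 12.8 in wild-type aortic libraries. The mutant was lower in 3 of 4 litter pairs in each valve, and the groups overlapped in both. The log2 difference was -0.55 in the pulmonary valve (SE 0.36, interval -1.30 to 0.21), -0.30 in the aortic valve (SE 0.36, interval -1.06 to 0.45) and -0.42 on average (SE 0.25, interval -0.96 to 0.11, limma adjusted p = 1.00). The 6 libraries low in muscle markers had a Cdkn2c median of 14.6, against 9.75 in the other 10, and wild-type groups held more of the 6 than mutant groups. In those 6 libraries alone, with a single mutant library in each valve, the aortic difference was 0.28, with the opposite sign. The pulmonary difference was -0.73 in the 6 libraries and -0.37 in the other 10, with the same sign as over all libraries.

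Cdkn2d had 21.04, 9.66, 18.6 and 21.1 normalised counts in mutant pulmonary libraries, against 59.7, 19.6, 5.33 and 13.9 in wild-type pulmonary libraries. It had 22.8, 13.3, 11.6 and 17.2 in mutant aortic libraries, against 33.5, 13.9, 23.9 and 16.1 in wild-type aortic libraries. The range of this gene, 11.2 times from lowest to highest, was the widest of the 8, and both ends were wild-type pulmonary libraries. The mutant was lower in 2 of 4 litter pairs in the pulmonary valve and in 3 of 4 in the aortic valve. The log2 difference was -0.05 in the pulmonary valve (SE 0.52, interval -1.15 to 1.04) and -0.37 in the aortic valve (SE 0.52, interval -1.47 to 0.72).

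Wild-type pulmonary library 1 held the highest Ccnd3 (245), Cdkn2d (59.7) and Ccnf (58.3) of all 16 libraries. Its erythroid markers (9 genes) averaged 10.04 on the log2 scale, against 5.19 to 8.78 in the other 15 libraries, and its mitosis markers averaged 7.19, against 6.12 to 6.58. Without that library the pulmonary difference was 0.34 for Ccnd3 and 0.52 for Cdkn2d, positive where the value over all libraries was negative. Wild-type aortic library 2, next in erythroid markers at 8.78, had 121 normalised counts of Ccnd3 and 13.9 of Cdkn2d, within the range of the other libraries. It is among the 6 libraries low in muscle markers. In those, Ccnd3 ran from 72.5 to 121 and Cdkn2d from 13.9 to 21.1, so its Ccnd3 was their highest and its Cdkn2d their lowest. The part of blood cells in these values was not tested. The genes most like Cdkn2d over the 16 libraries were Kdm7a (r = 0.874), Yod1 (r = 0.870) and Pex2 (r = 0.850), and those most like Ccnd3 were Nup50 (r = 0.908), Uck2 (r = 0.898) and Prelid3b (r = 0.893).

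**Figure D5:**
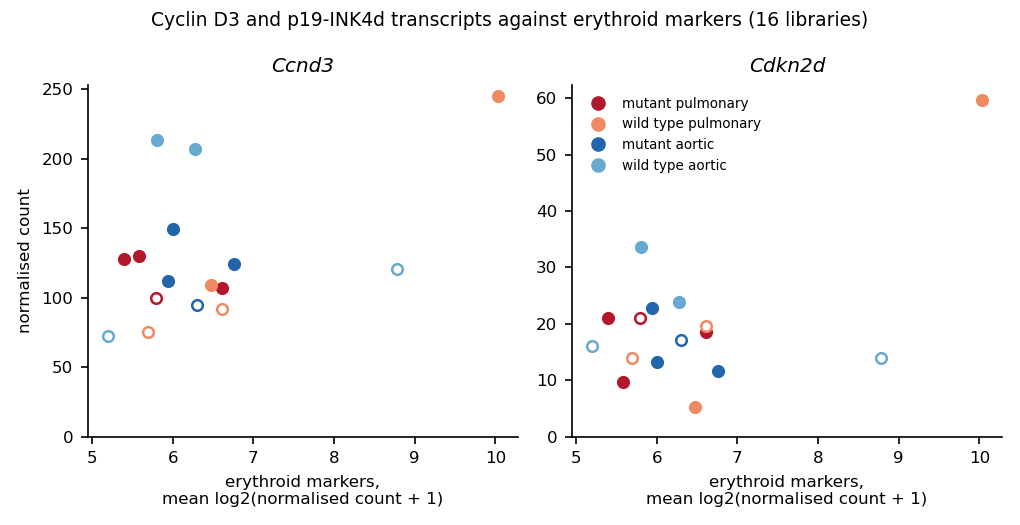
Normalised counts (y axis) of Ccnd3 and Cdkn2d against the mean log2 level of 9 erythroid markers (x axis) in 16 libraries coloured by group; open circles are libraries low in skeletal muscle markers. Wild-type pulmonary library 1, at an erythroid mean of 10.04, has the highest value of both genes (245 and 59.7). The library at 8.78, an open circle, has 121 and 13.9, the highest Ccnd3 and the lowest Cdkn2d value among the open circles.

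For the remaining inhibitors, Cdkn1a was most like Sept10 (r = 0.832), Tex10 (r = 0.776) and Glis2 (r = 0.753). Cdkn1b was most like Zfp260 (r = 0.726), Trim28 (r = 0.701) and Kdm5c (r = 0.695). Cdkn2c was most like Cog2 (r = 0.822), the adaptor gene Shc1 (r = 0.761) and Galnt16 (r = 0.756).

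The rest of the G1 machinery gave no adjusted call either. Of 15 genes for Cdk4, Cdk6, the retinoblastoma family and the E2F factors, 13 had a lower fitted mean in mutants averaged over valves and 0 passed, with a list median of -0.08 on the log2 scale, against 0.01 over all genes tested. Tfdp1, a partner of E2F factors, had the smallest p at -0.36 (limma adjusted p = 1.00). Of 15 other cyclins, kinases and phosphatases, 10 had a higher and 5 a lower fitted mean in mutants (list median 0.03) and 0 passed, and Cdc25a, a phosphatase that activates CDKs, had the smallest p at -0.31 (limma adjusted p = 1.00). Among S phase markers, of which 0 of 15 passed, the replication helicase subunits Mcm6 (log2 difference -0.46) and Mcm5 (-0.48) had the smallest p (limma adjusted p = 1.00 for both). Mcm5 averaged 55.3 ± 8.01 in mutant and 78.3 ± 22.6 in wild-type pulmonary libraries, and 49.8 ± 8.04 in mutant and 71.7 ± 14.9 in wild-type aortic libraries (SD, n = 4 each).

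Between the valves, 0 of 13963 genes passed the adjusted threshold and 47 (0.337%) had an unadjusted p below 0.05, and none of the 8 genes was among the 47. Pulmonary minus aortic, averaged over genotypes, Ccnf differed by 0.18 on the log2 scale (SE 0.20, interval -0.23 to 0.60) and Ccnd3 by -0.15 (SE 0.25, interval -0.68 to 0.37). Each valve was one library batch, so these values cannot be assigned to either.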

How the data were processed

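Laser-cut valve tissue gave RNA that was amplified and made into libraries, per the labels' protocols. Per the submitters' processing notes, the tools named are RSEM 1.2.3, cutadapt 1.6, CASAVA 1.8.2 and FastQC, on build GRCm38. How values were normalised and filtered is not given in the sources used. The authors deposited a normalised signal per gene and library, called normalised counts here. At a tolerance of 0.05 read, 100% of the deposited values were whole multiples of 1 read, and the scaling matched trimmed-mean factors recomputed from those reads. Recovered depth was 4.56 to 8.68 M reads (M, megareads).

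Genes reaching 1 in 4 or more libraries (13963) were tested with limma 3.58.1 in R 4.3.3 on log2(normalised count + 1), in 1 model with a mean for each of the 4 groups and a mean-variance trend. P-values are two-sided and adjusted by Benjamini-Hochberg over all genes, with a threshold of 0.05. Folds on this scale understate the change of low genes. The count alternative was edgeR 4.0.16, which called 0 genes, and DESeq2 1.42.0 supplied size factors only. D cyclin shares had an exact permutation test. Gene names, exon lengths and first exons came from GENCODE release 21 for mouse; 13780 identifiers matched a symbol. Scripts were tested on simulated data.

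Same-numbered libraries of a valve share a litter by the labels, which pairs them. Their deviations from the group means correlated at 0.49, -0.03, 0.07 and 0.45 in the pulmonary and 0.48, 0.01, 0.20 and 0.64 in the aortic valve. Named genes are all 8 members, the 3 genes most like each (Pearson r over 16 libraries, mean of at least 10), and up to 3 genes of each pathway list with the smallest p for the mean genotype effect, not all of which are printed. The members and lists were chosen with earlier results of these data known. The split by skeletal muscle markers, the longest-transcript lengths and the p53 motifs were added after seeing the data. Cdkn2a, Cdkn2b, Ccna1 and Ccnb3 were on the pathway lists but not among the genes tested, so they were not analysed here.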

Additional observations from a re-analysis of the deposited data

Results flagged for a closer look

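The genotype difference of Ccnf in the pulmonary valve minus that in the aortic valve was -1.50 on the log2 scale. It stood out because every mutant library was below its litter partner in the pulmonary valve and above it in the aortic valve, and because the test of the difference itself gave an unadjusted p of 0.00137 (limma, adjusted p = 1.00 over 13963 genes). It ranged from -1.70 to -1.34 when single libraries were left out. Because the valves were separate library batches, this contrast cannot be assigned to valve or batch. Of the 5 litters, 3 gave both valves, so the pulmonary and aortic pairs are not all independent. Among 32 groups of 4 values (8 genes in 4 groups), 0 had a library outside Dixon's 95% limit of 0.829. With 4 values a group this screen is weak and does not show that no library stands apart. Wild-type pulmonary library 1 lay inside the limit, yet without it the pulmonary differences of Ccnd3 and Cdkn2d turned positive (0.34 and 0.52).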

How the results depend on the processing

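None of the 8 genes passed the adjusted threshold in any of the 5 comparisons under any of the 29 settings run. The counts of all genes called changed as follows. The litter pairing, as a replicate block, gave 2 genes for the mean effect and 0 in the other comparisons, and the blocked difference of Ccnf between valves was -1.50; the block changed no call of the 8 genes. Skeletal muscle markers as a covariate also gave 2 for the mean effect. Libraries with muscle markers alone gave 2 genes (pulmonary), 3 (aortic) and 3 (mean), and the 6 low libraries alone gave 6, 5, 7 and, for the difference between valves, 1; each mutant group then has 1 library, assumed to vary like the others. Leaving out single libraries gave 0 to 2 genes for the aortic valve and 0 to 3 for the mean, the most without wild-type aortic library 4.

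Signs of small differences turned. In the pulmonary valve Ccnd3 was 0.0437 under quantile normalisation, 0.28 with the S phase and mitosis covariate and 0.27 in the low libraries; Cdkn2d was 0.40 and 0.33 under the last 2, and Cdkn1b -0.0937 in libraries with muscle markers. In the aortic valve Ccnd1 was -0.27 in libraries with muscle markers and -0.0315 in the low ones, Ccnd2 0.0433 with edgeR and 0.0143 with the covariate, Cdkn1a -0.52 (1.15 in the low ones) and Cdkn1b 0.0907 in libraries with muscle markers, and Ccnd3 0.0205, Cdkn2c 0.28 and Cdkn2d 0.19 in the low ones; Ccnd3 and Cdkn2d were -0.72 and -0.85 in those with muscle markers. The mean Ccnd1 difference was -0.0256 in libraries with muscle markers, and the aortic Ccnd2 share differed by 0.319 points with longest transcripts. Without single libraries the pulmonary differences ran from -0.22 to 0.34 (Ccnd3), -0.14 to 0.17 (Cdkn1b) and -0.57 to 0.52 (Cdkn2d), and the aortic ones from -0.16 to 0.34 (Ccnd1), -0.46 to 0.38 (Ccnd2), -0.11 to 0.50 (Cdkn1a) and -0.23 to 0.0299 (Cdkn1b). Share differences ran from -0.258 to 4.18 points (pulmonary Ccnd1), -4.65 to 3.27 (aortic Ccnd2) and -4.86 to 0.808 (aortic Ccnd3). The cause was not tested. Ccnf kept its sign in both valves in all settings. With 4 libraries a group the design detects little over all genes: Jag1, at -1.74 on the log2 scale in the pulmonary valve, also missed the adjusted threshold.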
